A study of Mus musculus with 8 samples.

Results

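Sarcoplasmic reticulum calcium handling was followed through 10 genes in mouse tibialis anterior muscle: the pumps Atp2a1 and Atp2a2, the release channel Ryr1, the calcium-binding proteins Casq1, Casq2 and Pvalb, the pump inhibitors Sln and Pln, the junction protein Jph1 and the calcium sensor Stim1. They were taken by gene name from 8 Agilent arrays, where 18 non-control probes carry one of the 10 names, among 56605 distinct probes. Of the 18 probes, 16 were well above background on at least 4 arrays and were tested. They cover 9 of the 10 genes, and Pln is the gene without a tested probe.

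RNA of tibialis anterior, a mainly fast-twitch muscle of the hind limb, came from male C57BL/6J mice that were 14 weeks old. There were 4 control samples and 4 from mice dosed by mouth for 6 weeks with Porphyromonas gingivalis, a bacterium of the gum pocket. The labels' protocols place all mice on High-fat diet 32 and describe bacteria in 100 µL of saline, fed by needle to mice 8 weeks old at the start, but name the recipients by codes that no sample carries. They state neither the bacterial number nor what controls received. Each sample was treated as a separate mouse, an assumption the labels leave unstated, and if it fails the p-values describe technical spread alone.

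Controls occupied one row of the slide and P. gingivalis samples the next, and an effect of slide row cannot be told apart from one of the bacteria. The control arrays were also brighter, with a 75th percentile of the processed signal of 275 to 306 against 238 to 255. A value table deposited with the series holds the same 8 arrays under other sample names: judged by their values, 4 of its 8 columns belong to an array of the opposite group in the scanner files. In sample order its columns run down the slide's columns, while the scanner files run along its rows. It remains unsettled which source is right. The scanner files' assignment is used here, and the differences of the members under the table's assignment are given once, after the members. All 10 fast fibre markers and all 8 slow fibre markers were tested, while the heart markers Myl7 and Tnni3 were not well above background on 4 arrays.

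Muscle fibres contract when calcium leaves the sarcoplasmic reticulum, a membrane store wrapped around the contractile filaments, and relax when it is pumped back. The ryanodine receptor RyR1 releases the calcium at junctions with the surface membrane, the SERCA pumps return it, and calsequestrin holds it inside the store. Fast fibres use SERCA1 and calsequestrin 1 and carry the soluble buffer parvalbumin, whereas slow fibres and heart use SERCA2. Calsequestrin 2 is the form of heart and is shared with slow fibres. The small membrane proteins phospholamban and sarcolipin restrain the pumps. STIM1 senses an emptied store and opens Orai channels at the cell surface.

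None of the tested genes passed the test. By limma, 0 of the 9 had an adjusted p under 0.05, against 0% of all 16037 tested genes. At an unadjusted p under 0.05 there were again 0 of 9, against 10.7% of all genes. By sign, 8 of the 9 stood higher and Casq2 lower in P. gingivalis muscle, where 45.7% of all genes stood higher. The median log2 difference of the 9 was 0.03 against −0.01 over all genes. The split by sign stayed at 8 and 1 with the other percentiles and with the median as scaling factor. It was 4 higher and 5 lower under normexp background correction, and 7 higher, 1 lower and 1 at 0 under quantile normalization. The split was 5 and 4 without control 2 and 5 and 4 under the value table's assignment. Without control 1, P. gingivalis 1 or P. gingivalis 2 it was 7 and 2, and without P. gingivalis 4 it was 6 and 3. Pvalb was the 1 gene whose groups did not overlap, in the higher direction, where 3.24% of all genes did so and 7.06% did so in either direction. Of the 16 tested probes, 12 were higher and 4 lower, against 14471 and 17178 of all 31649 tested probes. The 95% intervals of Ryr1, Jph1 and Stim1 reached no further than 1.13-fold upward and 0.908-fold downward, while that of Atp2a2 ran from −0.42 to 0.68 on the log2 scale.

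**Figure D1:**
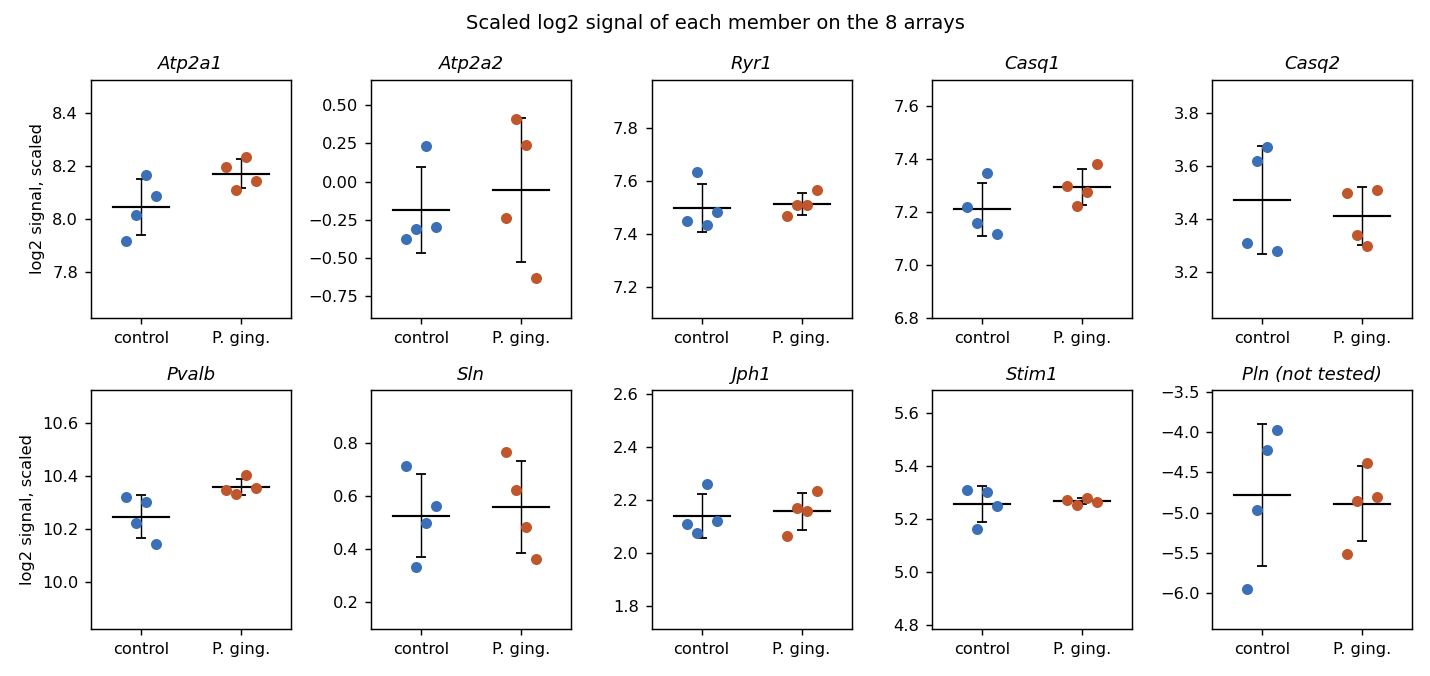
Scaled log2 signal (log2 of the processed signal less the array's 75th percentile, vertical axis) of the brightest tested probe of 9 genes and of the single Pln probe, for the 4 control (blue) and 4 P. gingivalis (P. ging., orange) arrays, with group mean and SD as line and bars. The vertical axes differ between panels. The groups overlap in every panel except that of Pvalb, whose 4 P. gingivalis values lie between 10.33 and 10.40 and whose control values end at 10.32.

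Levels below are scaled log2 signals, that is, log2 of the processed signal minus the log2 of the array's 75th percentile, so that 0 is the level of that percentile. Levels of different probes are not comparable with each other. Before scaling, every P. gingivalis signal lay below every control signal for 6 of the 9 genes. The 75th percentiles of the arrays did the same, at 238 to 255 against 275 to 306. How many of all genes did so was not counted, so the 6 of 9 is not a result about these genes. Scaling adds on average 0.24 (log2) to the difference. Probe positions are those of the mm9 build per the file headers. Exon and untranslated region annotation of that build was not used here. A bulk signal cannot tell fewer cells of a type from less RNA per cell.

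Ryr1, the calcium release channel itself, has 3 probes, and they did not move together. The sequences are shown because these 3 oligonucleotides, all 60 bases long and named Ryr1 in the files, gave 3 different group differences. Capitals mark the longest run of a repeated dinucleotide of at least 8 bases, and the first probe has none.

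A_52_P391110: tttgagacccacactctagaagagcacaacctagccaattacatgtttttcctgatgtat

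A_51_P256401: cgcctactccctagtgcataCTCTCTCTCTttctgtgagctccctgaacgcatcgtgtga

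A_55_P2735450: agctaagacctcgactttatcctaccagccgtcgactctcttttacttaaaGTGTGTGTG

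A run of at least 8 bases of this kind occurs in 2.74% of all 31649 tested probes. The first probe, A_52_P391110, is the brightest of the 3 on these arrays, is annotated to the RefSeq messenger RNA and lies on chromosome 7 from 29788789 to 29789487 on the minus strand. Its mm9 coordinates span 699 bases for 60 bases of sequence, so its target is not contiguous in the genome. The other probes are annotated to cDNA clones and lie within single blocks, from 29807633 to 29807692 and from 29899378 to 29899437 of the same chromosome and strand. Their GC contents are 40%, 53.3% and 45%, in the order printed.

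On the messenger RNA probe, Ryr1 stood at 7.45, 7.63, 7.43 and 7.49 in controls 1 to 4 and at 7.47, 7.51, 7.51 and 7.57 in P. gingivalis mice 1 to 4. The P. gingivalis values lie within the control range. The log2 difference was 0.01 ± 0.07 (SE), or 1.01-fold with an interval of 0.910 to 1.12 (adjusted p = 0.957 by limma).

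On the probe A_51_P256401, the signal was −0.34, −0.37, −0.22 and −0.31 in the controls and −0.04, −0.01, 0.03 and −0.06 in P. gingivalis muscle. All 4 P. gingivalis arrays were above all 4 controls. The difference was 0.29 ± 0.06 (SE), 1.22-fold (interval 1.11 to 1.35), with an unadjusted p of 0.00106 and an adjusted p of 0.309 by limma, so it did not pass. The exact permutation p was 0.0286, the smallest that 70 assignments allow. It was the 1 of the 16 tested probes of these genes at an unadjusted p under 0.05, where 11.2% of all tested probes were, 4.84% higher and 6.36% lower. With the Pvalb probe it was also 1 of 2 whose groups did not overlap, both higher, where 3.01% of all probes did so in that direction. Before scaling its signal was 229 to 246 in controls and 239 to 254 in P. gingivalis muscle, with overlapping groups, and the unscaled log2 difference was 0.05. Under the value table's assignment the difference was 0.05.

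The A_55_P2735450 probe went the other way, with −1.14, −1.27, −1.48 and −0.72 in controls and −1.51, −1.38, −1.43 and −1.48 in P. gingivalis muscle. Control 4 was the highest of the 8 and the groups overlapped. The difference of −0.29 ± 0.15 (SE) did not pass (adjusted p = 0.488 by limma), and without control 4 it was −0.15. Over the 8 arrays, A_51_P256401 and A_55_P2735450 correlated at r = −0.62 and each of them with the messenger RNA probe at −0.09 and −0.06, given here as a description of 3 oligonucleotides read on the same arrays.

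Jph1 encodes junctophilin 1, which ties the sarcoplasmic reticulum to the surface membrane where Ryr1 sits. Its probe (chromosome 1, 16987562 to 16987621) read 2.11, 2.07, 2.26 and 2.12 in controls and 2.06, 2.17, 2.16 and 2.24 in P. gingivalis muscle. The groups overlapped over nearly their whole range. Its difference was 0.02 ± 0.07 (SE), 1.01-fold with an interval of 0.908 to 1.13 (adjusted p = 0.948 by limma).

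**Figure D2:**
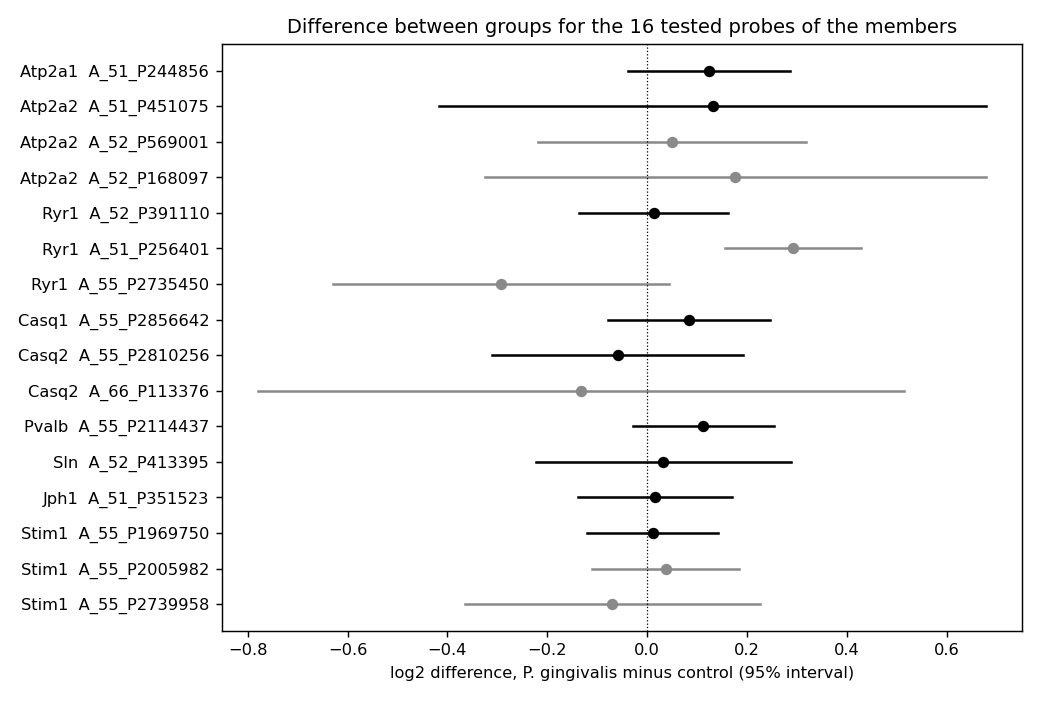
Log2 difference (P. gingivalis minus control, horizontal axis) with its 95% interval for the 16 tested probes, by gene and probe name. Black marks the brightest tested probe of each gene and grey the others; A_51_P256401 of Ryr1 is the 1 probe whose interval, 0.16 to 0.43, leaves out 0.

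Of the calsequestrins, Casq1 holds most of the stored calcium in fast fibres. Its probe (chromosome 1, 174140256 to 174140315) read 7.22, 7.16, 7.35 and 7.12 in controls and 7.30, 7.22, 7.27 and 7.38 in P. gingivalis muscle. Control 3 lay among the P. gingivalis values, and the other controls lay below all of them, control 1 by less than the printed digits show. Casq1 differed by 0.08 ± 0.07 (SE), 1.06-fold (interval 0.947 to 1.19, adjusted p = 0.676 by limma). It was 0.13 without control 3, 0.05 without control 4 and 0.05 without P. gingivalis 4.

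Casq2, the heart and slow-fibre form, was the 1 member with a lower mean in P. gingivalis muscle. On its brighter probe (chromosome 3, 101950367 to 101950425) it read 3.31, 3.62, 3.67 and 3.28 in controls and 3.50, 3.34, 3.30 and 3.51 in P. gingivalis muscle. The controls split into a high and a low pair that enclose all P. gingivalis values. The difference was −0.06 ± 0.11 (SE), with an interval of 0.806-fold to 1.14-fold (adjusted p = 0.861 by limma). Without control 3 it was 0.0078. The second Casq2 probe, whose 60 bases span 3001 bases of the genome (chromosome 3, 101920873 to 101923873), stood near background at −4.53 to −3.30 over the 8 arrays. It differed by −0.13 ± 0.28 (SE) and correlated with the brighter probe at r = 0.70 over the 8 arrays.

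Atp2a1 encodes SERCA1, the pump of fast fibres. Its probe (chromosome 7, 133591703 to 133591762) read 7.92, 8.02, 8.17 and 8.09 in controls and 8.20, 8.11, 8.24 and 8.15 in P. gingivalis muscle. Control 3 lay among the P. gingivalis values and the other controls below them. The difference was 0.12 ± 0.07 (SE), 1.09-fold with an interval of 0.974 to 1.22 (adjusted p = 0.537 by limma, exact permutation p = 0.114). It was higher in P. gingivalis muscle under all 22 alternative settings, at 0.08 to 0.22. Before scaling, which is not among those settings, the difference was −0.12 (log2), with overlapping groups.

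Atp2a2 encodes SERCA2, the pump of slow fibres and heart, and was the most variable member. On its brightest probe (chromosome 5, 122903704 to 122903763) it read −0.38, −0.31, 0.23 and −0.30 in controls and −0.24, 0.41, 0.24 and −0.64 in P. gingivalis muscle. Control 3 and P. gingivalis 2 and 3 were high and P. gingivalis 4 was low, so that both groups spread over most of the range. The lowest and highest arrays differed 2.06-fold, and its within-group SD of 0.39 exceeded that of 93.0% of all genes, whose median was 0.13. The group difference was 0.13 ± 0.24 (SE, adjusted p = 0.859 by limma). It was −0.02 without P. gingivalis 2, 0.32 without P. gingivalis 4 and 0.03 without P. gingivalis 3. It was also 0.27 without control 3 and 0.07 without control 1. The other Atp2a2 probes differed by 0.05 ± 0.12 (SE, chromosome 5, 122906850 to 122906909) and 0.18 ± 0.22 (SE, 122910660 to 122910719). The latter ranged from 0.0098 without control 1 to 0.37 without control 3.

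The spread of Atp2a2 followed that of the slow fibre markers. The slow fibre score, the mean of 8 marker genes each centred on its own mean, ran from −0.47 to 0.43 in controls and from −0.52 to 0.57 in P. gingivalis muscle. Over the 8 arrays it correlated with Atp2a2 at r = 0.92 (exact permutation p = 0.00213, adjusted 0.0384 over 18 relations of 9 genes with 2 fibre scores) and rho = 0.83 (exact p = 0.0154, adjusted 0.138). Leaving out P. gingivalis 2 and 4, which lie farthest from the median score, r was 0.83. With both groups centred on their own means r was 0.92. Groups of 4 arrays are too few for a test within each, and r was 0.80 in controls and 0.99 in P. gingivalis muscle. The other Atp2a2 probes had r = 0.20 and 0.34 with the same score, so the relation was seen on the brightest probe only. Both are dimmer, with processed signals before scaling of 63.9 to 104 and of 9.85 to 19.7, the latter near background. Whether this lowers their r was not tested. The other members gave r between −0.60 (Ryr1) and 0.52 (Stim1) with the slow fibre score, and their lowest adjusted p for r was 0.363. Casq2 was at −0.20 (rho = −0.10) and Sln at 0.41 (rho = 0.43).

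**Figure D3:**
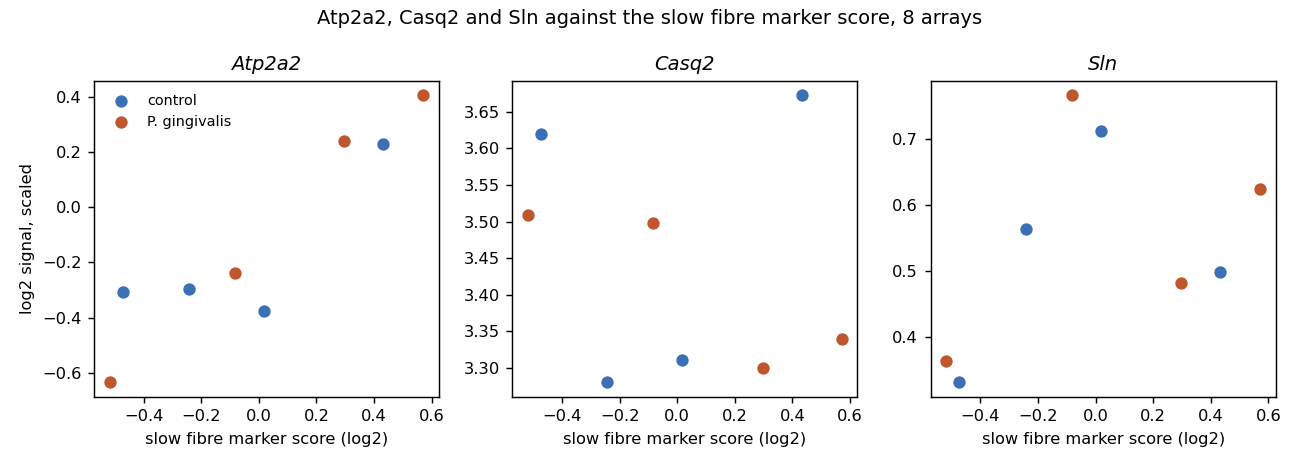
Scaled log2 signal of Atp2a2, Casq2 and Sln (vertical axes) against the slow fibre marker score (horizontal axis, log2), 1 point per array, control in blue and P. gingivalis in orange. Atp2a2 rises along the score (r = 0.92 over 8 arrays), while Casq2 (r = −0.20) and Sln (r = 0.41) are scattered.

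Sln encodes sarcolipin, a short membrane protein that lowers the calcium gained per ATP by the SERCA pumps. Its probe (chromosome 9, 53701574 to 53701633) read 0.71, 0.33, 0.50 and 0.56 in controls and 0.77, 0.63, 0.48 and 0.36 in P. gingivalis muscle. Both groups covered the same range, with P. gingivalis 1 the highest and control 2 the lowest array. The difference was 0.03 ± 0.11 (SE), an interval of 0.857-fold to 1.22-fold (adjusted p = 0.933 by limma). Under the value table's assignment it was −0.13.

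Pln encodes phospholamban, which restrains SERCA2 in heart and slow fibres. Its single probe (chromosome 10, 53064944 to 53065003) was well above background on 2 of 4 control and 1 of 4 P. gingivalis arrays. No size is given for its difference. Its processed signal, in arbitrary units before scaling, was 4.70, 9.73, 14.7 and 19.3 in controls and 5.49, 8.79, 11.4 and 8.91 in P. gingivalis muscle, so the groups overlapped in full. The lowest signal of any spot well above background was 7.32 to 9.12 on the control arrays and 7.44 to 8.21 on the others.

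Pvalb encodes parvalbumin, the soluble calcium buffer that speeds relaxation of fast fibres. Its probe (chromosome 15, 78021951 to 78022010) read 10.32, 10.22, 10.30 and 10.14 in controls and 10.35, 10.33, 10.40 and 10.35 in P. gingivalis muscle. The 4 P. gingivalis values stood just above the highest control. The difference was 0.11 ± 0.06 (SE), 1.08-fold with an interval of 0.980 to 1.19 (adjusted p = 0.521 by limma, exact permutation p = 0.0286, the smallest possible). Before scaling the order was the opposite, with 344279 to 371197 in controls and 323087 to 329534 in P. gingivalis muscle. The probe ranked 2nd or 3rd in brightness on every array, with the same ranks in both groups, so quantile normalization returns a difference of 0 by construction. Under the value table's assignment the scanner values differed by −0.0046.

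Values of the fast fibre markers lay beside those of the fast-fibre members. Of the 10 markers 9 were higher in P. gingivalis muscle, where 45.7% of all genes were higher. At an unadjusted p under 0.05 there was 1 (Myl1), where 4.86% of all genes were higher at that p, and 0 passed adjustment. The fast fibre score ran from −0.14 to 0.03 in controls and from 0.01 to 0.13 in P. gingivalis muscle. Myl1, a fast myosin light chain, differed by 0.25 ± 0.06 (SE, adjusted p = 0.323 by limma), and Mylpf, another, by 0.15 ± 0.07. The score correlated with Pvalb at r = 0.80 over the 8 arrays (exact permutation p = 0.0174, adjusted 0.157) and rho = 0.88 (adjusted 0.130). Without controls 2 and 4, r was 0.46. With both groups centred on their own means r was 0.57. It was 0.75 in controls and 0.0017 in P. gingivalis muscle, with 4 arrays in each, too few for a test. Among slow fibre markers 7 of 8 were higher and 0 were at an unadjusted p under 0.05, with Myoz2 at 0.20 ± 0.14 (SE; 0.06 without control 2) and Myl3 at 0.09 ± 0.07 (0.05 without control 1). All 5 fibroblast markers were also higher in P. gingivalis muscle, with a score of −0.65 to 0.04 in controls and 0.09 to 0.40 in the other group, as were the 4 tested tendon markers (−0.79 to 0.17 against 0.05 to 0.39). Of the macrophage markers 3 of 4 were higher, with scores of −0.33 to 0.02 and −0.12 to 0.43. All 5 endothelial markers were lower, where 8704 of 16037 genes were lower, with scores of −0.01 to 0.31 and −0.20 to 0.12. Kdr differed by −0.59 ± 0.15 (SE, adjusted p = 0.323 by limma). Pecam1, Cdh5, Tek and Emcn differed by only −0.04, −0.05, −0.01 and −0.03. Controls 1 to 3 scored −0.014, −0.0035 and −0.0057, and control 4 scored 0.31. The remaining marker lists were mixed. Of their tested markers, 2 of 3 heart, 3 of 5 smooth muscle and 3 of 5 adipocyte markers were higher. So were 1 of 4 blood, 2 of 5 Schwann and nerve and 1 of 2 satellite cell markers. The part of fibre type, other cell types or slide row in the differences of the members was not tested.

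Stim1, the store calcium sensor, was the steadiest member. On its brightest probe (chromosome 7, 109585303 to 109585362) it read 5.31, 5.16, 5.30 and 5.25 in controls and 5.27, 5.25, 5.28 and 5.26 in P. gingivalis muscle. The P. gingivalis values lay within the control range, and the within-group SD of 0.05 was below that of all but 3.66% of genes. The difference was 0.01 ± 0.06 (SE), with an interval of −0.12 to 0.14 on the log2 scale (adjusted p = 0.957 by limma). A nearby probe (109585756 to 109585815) differed by 0.04 ± 0.06 (0.0084 without control 2) and another (109416978 to 109417037) by −0.07 ± 0.13 (SE). The last, at 109535465 to 109535524, was well above background on 0 of 8 arrays.

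Under the value table's assignment of the arrays, 0 of the 9 members were at an unadjusted p under 0.05. The differences were then −0.016 for Ryr1 and 0.09 for Jph1, 0.06 for Casq1 and −0.0019 for Casq2. The pumps stood at 0.10 for Atp2a1 and 0.014 for Atp2a2, Sln at −0.13, Pvalb at −0.0046 and Stim1 at 0.02. Ryr1, Pvalb and Sln changed sign, Atp2a2 and Casq2 shrank to near 0, and Jph1 grew.

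The members differed in how closely they followed each other from array to array. Over the 8 arrays, Casq1 correlated with Pvalb at r = 0.73 and with Jph1 at 0.66. Ryr1 ran against Stim1 (r = −0.87) and Sln (r = −0.74), and Atp2a1 and Atp2a2 correlated at 0.40. The first 4 of these are the 2 highest and 2 lowest of 36 pairs. All pairs share the same 8 arrays and 1 scaling factor per array, and the values are a description. The within-group SDs of Pvalb, Ryr1, Jph1, Atp2a1 and Casq1 (0.06, 0.07, 0.08, 0.08 and 0.09) were below the median of all genes, and those of Casq2 (0.16) and Sln (0.17) above it.

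The genes whose signal ran most nearly parallel to each member over the 8 arrays were Emc10 (r = 0.96) and 4930567H12Rik (0.96) for Atp2a1, and Golm2 (0.93) and Smarcc2 (0.93) for Atp2a2. For Ryr1 they were Gypc (0.96) and Eif3f (0.96), for Jph1 Frk (0.96) and Sfrp2 (0.91), and for Casq1 Gm3646 (0.96) and Alg3 (0.96). Casq2 ran with Acad8 (0.98) and Dtna (0.94), the latter encoding a component of the dystrophin complex. Pvalb ran with Aldoa (0.97), the muscle aldolase of glycolysis, and Fdxacb1 (0.97), Sln with Gm10413 (0.98) and Fst (0.98), the latter encoding the myostatin antagonist follistatin, and Stim1 with Wdr83 (0.97) and Gm16867 (0.95). These are the highest Pearson correlations among the 16033 genes with a value on every array, over only 8 arrays.

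The wider set of calcium handling genes held 80 genes in 5 lists, of which 68 were tested, 59 of them besides the members. By limma 0 of the 59 passed adjustment. At an unadjusted p under 0.05 there were 2 higher and 2 lower (3.39% each), against 4.86% and 5.83% of all genes. The 59 split into 32 higher (54.2%, against 45.7% of all genes) and 27 lower with a median of 0.01. The medians of the lists, members included, were 0.02 for 26 release channel and triad genes, 0.04 for 11 pump genes, 0.02 for 8 calcium-binding genes, −0.02 for 13 genes of store-operated entry and extrusion, and 0.01 for 10 genes of the calcineurin branch. Over all genes the median was −0.01.

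Of the genes named by rule on the higher side, Stim2, the second store sensor, differed by 0.22 ± 0.06 (SE, 1.16-fold) with groups that did not overlap. Itpr2, an inositol trisphosphate receptor, differed by 0.27 ± 0.10 (1.21-fold) and Atp2b3, a calcium pump of the surface membrane, by 0.23 ± 0.11. Ppp3cb, a catalytic subunit of the calcium-activated phosphatase calcineurin, differed by 0.12 ± 0.06, also without overlap. Their adjusted p-values by limma lay between 0.346 and 0.492. Under the value table's assignment the differences were 0.0077 for Stim2, 0.04 for Itpr2, 0.03 for Atp2b3 and 0.012 for Ppp3cb.

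On the lower side, Nfatc3, a transcription factor that calcineurin activates, differed by −0.28 ± 0.08 (SE) with groups that did not overlap, and Nfatc1, another, by −0.14 ± 0.06. Saraf, an inhibitor of store-operated entry, differed by −0.15 ± 0.07. Atp2b2, a surface membrane pump, was well above background on all 4 control but only 2 P. gingivalis arrays and stood at −0.30 ± 0.12. Their adjusted p-values by limma were 0.329 to 0.455. Under the value table's assignment the differences were −0.12 for Nfatc3, −0.03 for Nfatc1, −0.02 for Saraf and −0.27 for Atp2b2. In 4 of the 59 genes the groups did not overlap: Stim2, Ppp3cb and Trdn were higher and Nfatc3 was lower, against 3.24% and 3.83% of all genes. Trdn, which encodes the junctional protein triadin and differed by 0.09 ± 0.06 (SE), falls outside the naming rule and was named after its values were seen. The genes without a tested probe were Ryr2, Ryr3, Jph3, Calb1, Calb2, Ocm, Trpc1 and Pln, and the small pump regulators Mrln, Strit1, Arln and Erln, whose symbols matched no probe.

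**Figure D4:**
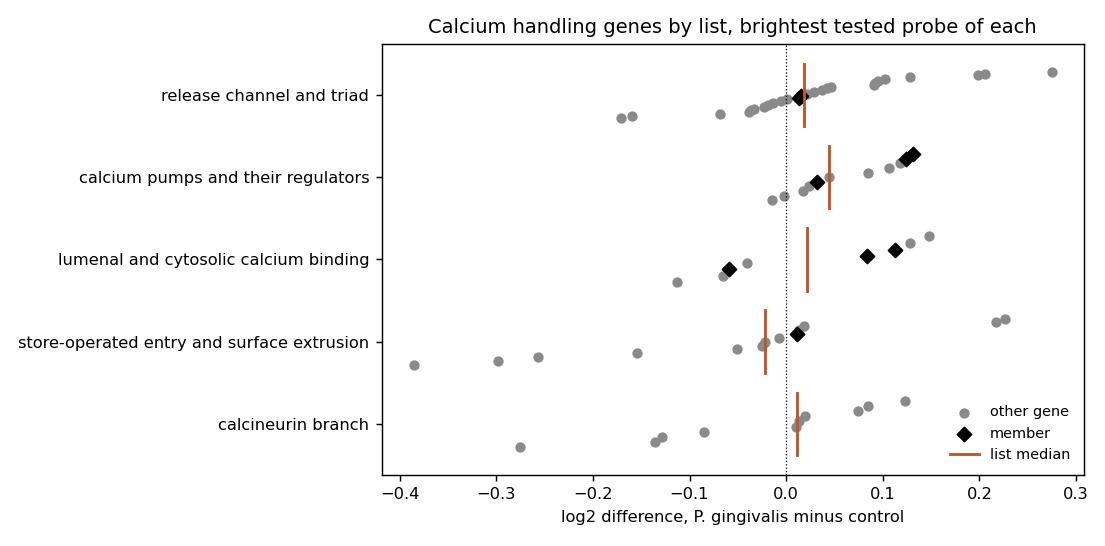
Log2 difference (P. gingivalis minus control, horizontal axis) of the 68 tested calcium handling genes in 5 lists, members as black diamonds, other genes as grey points and the list median as an orange line. All medians lie between −0.02 and 0.04, and the members lie between −0.06 and 0.13.

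**Figure D5:**
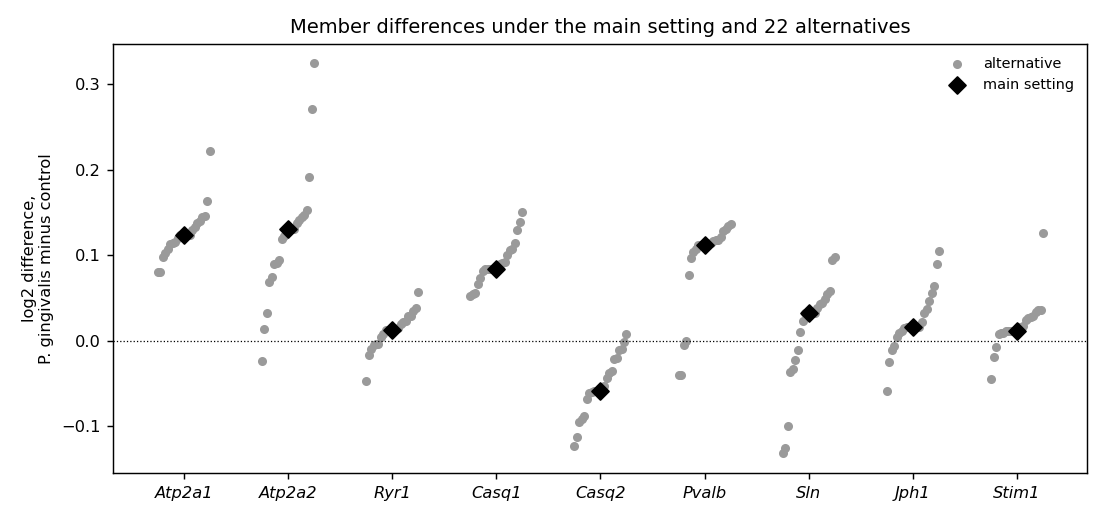
Log2 difference (P. gingivalis minus control, vertical axis) of the 9 tested members under the main setting (black diamonds) and 22 alternatives (grey points, sorted within each gene). Atp2a1 and Casq1 lie above 0 throughout, while the other 7 members cross or touch 0. Where the value table's own values are used, Atp2a2 is read from A_52_P569001 in place of its brightest probe.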

How the data were processed

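Single-colour Cy3 microarrays (200 ng of total RNA per sample) were measured in 4 control and 4 P. gingivalis samples, grouped by their labels. The deposited scanner files give spot intensity processed by Agilent Feature Extraction 11.0.1.1 per the file headers (11.1 per the submitters' processing notes): background-subtracted, detrended within the array, not scaled between arrays. Flags for spots above background, saturated or outlying come from the same files. The authors' deposited value table holds log2 signals of 24764 probes. No source used here gives its centring, scaling or probe filter.

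Each array's log2 intensity was expressed relative to its 75th percentile, taken over all 59305 spots other than controls, outlier spots were left out, and spots of a probe were averaged. Probes well above background on at least 4 of 8 arrays (31649) were tested by the lmFit and eBayes functions of limma (version 3.58.1, under R 4.3.3), with Benjamini-Hochberg adjustment over all of them and a threshold of 0.05. A gene was read from its tested probe of highest mean signal (16037 genes). Current names, through RefSeq GRCm38.p6, were found for 43849 of 56605 probes. Spots well above background made up 56.3% to 59.3% of each array, and 0 were saturated. The number of arrays limits the precision. Exact permutation tests are two-sided, over the 70 assignments of arrays to groups for a difference and over all pairings of the 8 arrays for a correlation. Scripts were tested on simulated data.

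Named genes were all 10 members, the 4 other calcium handling genes with the lowest p in each direction, the 2 such markers of each fibre type, and the 2 genes best correlated with each member. The members and lists were chosen with earlier results of these data known. Alternatives were normexp (offset 50), quantile normalization, other percentiles or the median, other filters, an intensity trend, a replicate block, each array left out, the value table, its grouping, and the mean over a gene's probes.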

Additional observations from a re-analysis of the deposited data

Results flagged for a closer look

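On the brightest Atp2a2 probe, A_51_P451075, control 3 stood at 0.23, apart from the other controls, the nearest of which was at −0.30. The gap was 0.871 of the range of the 4 controls, above the limit of Dixon's test at the 95% level. This was 1 of 32 groups of 4 arrays examined over the member probes, and chance gives about 1 in 20. Control 3 also had the highest slow fibre score of the controls, at 0.43. Without control 3 the Atp2a2 difference was 0.27 in place of 0.13.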

How the results depend on the processing

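Under 21 alternatives 0 members and 0 other calcium handling genes passed adjustment. Of 198 member differences under alternatives, 172 kept their direction and side of the threshold and 25 reversed, with a lowest adjusted p of 0.182 by limma. Over the other tested probes of the members, not among the 198, the lowest adjusted p by limma was 0.0603, for A_51_P256401 of Ryr1. Atp2a1 and Casq1 kept their direction under all alternatives. Before scaling, which is not among the alternatives, they differed by −0.12 and −0.16 (log2). In either reading of the value table, Atp2a2 was read from A_52_P569001 in place of its brightest probe. Where a value below moved, the cause was not tested.

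Calls over all probes rose from 0 to 14 under normexp, 2 with no filter, 2 with an intensity trend and 1 with the value table matched to the arrays. Probes at an unadjusted p under 0.05 were 3544, against 9094 under normexp, 906 in the value table by its own labels and 1224 with scanner values under the table's groups. The share of them higher was 43.2%, against 78.5% under normexp, 57.5% on the median of tested probes, 53.5% with no filter and 54.2% on the percentile over distinct probes, the last chosen after seeing the data. Members at that p went from 0 to 2 of 9 with an intensity trend, all higher, where 12.4% of all probes were at that p, 5.46% higher. Members without overlap went from 1 to 0 under normexp, quantile normalization, either reading of the value table and the table's groups. Of all probes, 14.3% were higher and 3.42% lower without overlap under normexp, against 3.01% and 3.66% in the main setting. These shares were 3.64% and 3.23% under quantile normalization and 0.954% and 1.44% under the table's groups. In the value table they were 0.961% and 1.29% by its own labels and 3.53% and 3.18% matched to the arrays. Controls 1 and 2 and P. gingivalis 3 and 4 are the 4 arrays with the same group in both sources. Over these alone 4 members were without overlap, all higher, where 18.1% of all probes were higher and 25.4% lower without overlap. Leaving out 1 array gave 1 to 3 members, the 3 without control 3. There 5.42% of all probes were higher and 7.6% lower without overlap. Other calcium handling genes at an unadjusted p under 0.05 numbered 4 (6.78%, against 11.2% of all probes). They went to 11 under normexp (18.6%, against 28.7%) and 8 with the trend (13.6%, against 12.4%). In the value table by its labels there was 1 (1.72%, against 3.66%), and under its groups 0 (against 3.87%). Leaving out 1 array gave 3 to 7, the 7 without control 3 (11.9%, against 12.7%).

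Reversed under normexp were Ryr1 (−0.048), Sln (−0.011), Jph1 (−0.059), Stim1 (−0.045), A_66_P113376 of Casq2 (0.15), A_55_P2005982 of Stim1 (−0.036) and Atp2b2 (0.11). In the value table by its own labels these were Pvalb (−0.040), Sln (−0.13), A_55_P2735450 of Ryr1 (0.081), A_55_P2739958 of Stim1 (0.015), Stim2 (−0.017) and Nfatc1 (0.0061), and matched to the arrays Pvalb (−0.040), Sln (−0.022) and Jph1 (−0.025). Under the table's groups they were Ryr1 (−0.016), Pvalb (−0.0046), Sln (−0.13), A_55_P2735450 (0.046), A_55_P2739958 (0.041) and Myl1 (−0.033). Over same-group arrays they were Ryr1 (−0.0033) and Sln (−0.10), and on the mean of its probes Stim1 (−0.0069). Pvalb was 0 under quantile normalization.

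Leaving out 1 array gave −0.023 to 0.32 for Atp2a2, −0.0093 to 0.057 for Ryr1, −0.12 to 0.0078 for Casq2, −0.037 to 0.098 for Sln, −0.011 to 0.056 for Jph1, −0.020 to 0.029 for Stim1, −0.022 to 0.13 for A_52_P569001 of Atp2a2, −0.31 to 0.099 for A_66_P113376 and −0.15 to 0.018 for A_55_P2739958. With no change of sign it gave 0.053 to 0.13 for Casq1, 0.0098 to 0.37 for A_52_P168097 of Atp2a2, 0.0084 to 0.062 for A_55_P2005982 of Stim1, 0.14 to 0.30 for Atp2b3, 0.061 to 0.27 for Myoz2 and 0.049 to 0.12 for Myl3. Replicate numbers are not stated to pair the samples. Same-numbered deviations correlated at 0.0069 to 0.063, and 1 of 4 controls correlated best with its own number. With a replicate block 3406 probes were at an unadjusted p under 0.05 and 0 members passed adjustment. Pln and A_52_P363077 of Stim1 were too near background to test.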
